A study of Rattus norvegicus with 18 samples.

Results

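The experiment described here is the effect of palbociclib at 100 mg/kg/day on the rat jejunal mucosa, set against vehicle. Its members are the 3 arrays labelled palbociclib (100 mg/kg/day) and the 3 arrays labelled vehicle, chosen by the treatment label alone, out of 18 arrays in the series. Each array held log2 expression values of 31099 probe sets, from which 14217 genes with 1 symbol were measured, each by its brightest probe set. The treated group was male Sprague Dawley rats, 6 to 8 weeks of age, given palbociclib at 100 mg/kg/day by oral gavage in 0.5% methyl cellulose. The vehicle group was male rats of the same strain and age range given 0.5% methyl cellulose alone. The labels name no genetic change in any group, all groups were dosed daily, and RNA came from scrapings of the jejunal mucosa, the absorptive lining of the middle stretch of the small intestine, which carry epithelium together with the immune and connective tissue cells beneath it. The other groups used here for comparison received palbociclib at 30 mg/kg/day in the same vehicle, or ribociclib at 300 mg/kg/day or abemaciclib at 120 mg/kg/day in another vehicle, with 3 arrays each. Compound and vehicle therefore cannot be told apart in any comparison that involves ribociclib or abemaciclib. A further group, given abemaciclib at 36 mg/kg/day, was in the fit for its part in the spread and was not compared. The design gave 10 rats to a group and dosing for 4 or 15 days, and the labels tie no array to an animal or to a duration. In the main fit each p-value therefore refers to the spread among arrays of the same group, pooled over all 18 arrays, which may be technical. The question of the study was whether intestinal toxicity of such compounds follows from inhibition of CDK4 and CDK6.

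Palbociclib blocks CDK4 and CDK6, the kinases that pair with D-type cyclins and phosphorylate the retinoblastoma protein Rb. Phosphorylated Rb releases E2F transcription factors, which switch on genes of DNA replication and let a cell pass from G1 into S phase. In the small intestine the cycling cells sit in the crypts and the enterocytes, goblet cells and other mature cells above them no longer divide, while lymphocytes lie between the epithelial cells and in the tissue beneath.

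The arrays had the markers of intestinal epithelium. The log2 values of Vil1, Epcam, Fabp2 and Krt20 lay between 13.49 and 14.01 in the palbociclib arrays and between 13.46 and 14.05 in the vehicle arrays. Gastric Gkn1 and Atp4a and colonic Car1 lay between 3.73 and 4.97 in the palbociclib arrays and between 3.53 and 5.08 in the vehicle arrays. Fabp6, the bile acid binding protein of the ileum, had log2 values of 4.16, 4.43 and 5.52 in the palbociclib arrays and 7.81, 8.67 and 5.25 in the vehicle arrays. The groups overlapped for Fabp6, and both were far below the mean of 12.77 with ribociclib at 300 mg/kg/day. The colonic water channel Aqp8 was 7.58, 10.16 and 5.28 in the palbociclib arrays and 8.71, 4.86 and 5.12 in the vehicle arrays, so arrays of 1 group differed widely in such region-dependent genes. Correlations over all genes lay between 0.983 and 0.989 within the palbociclib group and between 0.978 and 0.991 with the vehicle arrays. The 3′ minus 5′ log2 value of the beta-actin control probe sets, a sign of RNA quality, was 0.5, 0.76 and 0.54 in the palbociclib arrays and 0.65, 0.79 and 0.57 in the vehicle arrays.

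No gene passed limma's test of palbociclib 100 mg/kg/day against vehicle at an adjusted p under 0.05 (0 of 14217 genes, 0%), and the smallest adjusted p was 0.109. At an unadjusted p under 0.05 there were 1023 genes (7.2%), of which 358 had higher means with palbociclib (2.52%) and 665 had lower means (4.68%). All 3 palbociclib arrays lay above all 3 vehicle arrays for 1060 genes (7.46%) and below them for 1641 genes (11.5%). These percentages are the background for every count of genes below. The log2 difference exceeded 1 in size, a factor of 2, for 202 genes, with 57 higher and 145 lower in the palbociclib arrays. In a fit that gave each array a weight from its agreement with its group, 398 genes passed, 105 of them higher (0.739%) and 293 lower (2.06%), and the weights of the palbociclib arrays A, B and C were 2.54, 1.15 and 0.578. For 1 gene, an exact permutation test of 3 arrays against 3 has a smallest possible p of 0.1. The genes named below are therefore values with their spread, and none of them is a call in the unweighted fit.

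**Figure D1:**
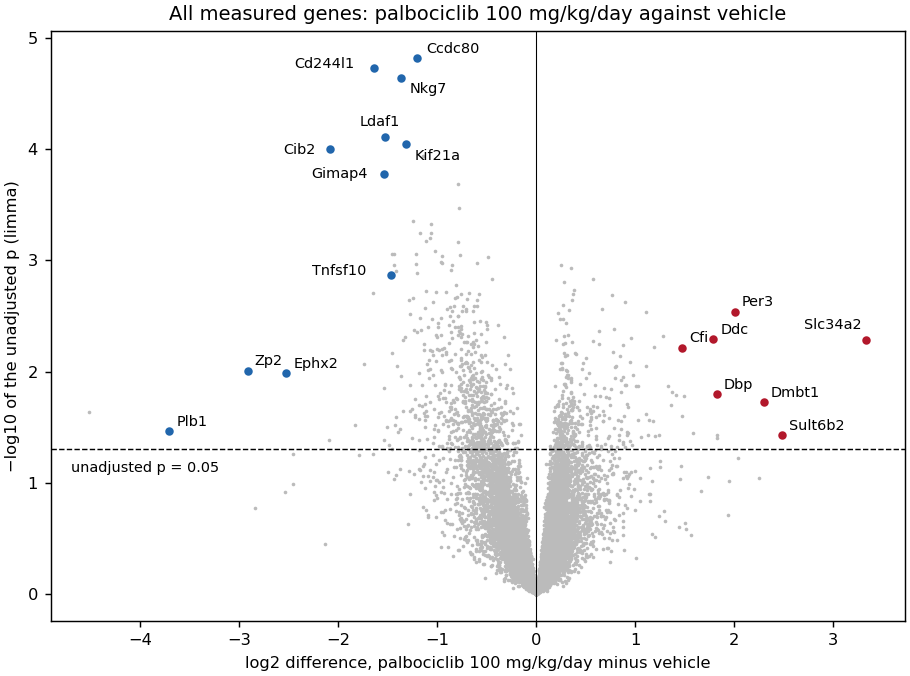
Each point is 1 of the 14217 genes, with its log2 difference (palbociclib 100 mg/kg/day minus vehicle) on the x axis and the −log10 of its unadjusted limma p on the y axis. The named genes are the largest or smallest-p differences in the text, higher with palbociclib in red and lower in blue, and points above the dashed line have an unadjusted p under 0.05. The 6 genes with the smallest p are all lower with palbociclib, and no gene passed after adjustment.

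The 6 genes with the smallest p were all lower with palbociclib, and 2 of them belong to cytotoxic lymphocytes. Nkg7, a granule membrane protein of NK and cytotoxic T cells, had log2 values of 6.73, 6.46 and 6.47 in the palbociclib arrays and 8.08, 7.75 and 7.93 in the vehicle arrays. The groups were clearly apart, with a log2 difference of -1.37 ± 0.23 (SE), 2.58-fold lower, and an adjusted p of 0.109 in limma. Cd244l1, a member of the SLAM receptor family related to the NK cell receptor 2B4, was 5.94, 6.23 and 5.31 in the palbociclib arrays and 7.3, 7.61 and 7.49 in the vehicle arrays. Its log2 difference was -1.64 ± 0.27 (SE), with the same adjusted p of 0.109 in limma. Ccdc80, a secreted matrix protein, was 5.58, 5.07 and 4.82 in the palbociclib arrays and 6.26, 6.25 and 6.56 in the vehicle arrays. It had the smallest p of all genes, with a log2 difference of -1.2 ± 0.2 (SE) and an adjusted p of 0.109 in limma. It passed without palbociclib array A (adjusted p = 0.0374 in limma, against 0.00594 to 0.732 over all alternatives). Against vehicle, Ccdc80 was also lower with ribociclib at 300 mg/kg/day and abemaciclib at 120 mg/kg/day, with log2 differences of -1.54 and -1.92. Those of Cd244l1 were -2.38 and -3.15. Ribociclib and abemaciclib were given in another vehicle, so compound and vehicle cannot be told apart in these differences.

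The other 3 of these genes are not lymphocyte markers. Ldaf1, which helps to form lipid droplets, was 7.27, 7.56 and 6.77 in the palbociclib arrays and 8.38, 8.6 and 9.2 in the vehicle arrays, a log2 difference of -1.53 ± 0.29 (SE). Kif21a, a kinesin that acts at microtubule ends, was 6.61, 6.9 and 7.12 in the palbociclib arrays and 7.97, 8.22 and 8.4 in the vehicle arrays, a log2 difference of -1.32 ± 0.25 (SE). Cib2, a calcium and integrin binding protein, was 5.54, 4.42 and 5.74 in the palbociclib arrays and 7.13, 7.39 and 7.42 in the vehicle arrays, a log2 difference of -2.08 ± 0.41 (SE). All 3 had adjusted p = 0.232 in limma, and none had overlapping groups. Cib2 was also lower than vehicle with ribociclib at 300 mg/kg/day and abemaciclib at 120 mg/kg/day, given in another vehicle, with log2 differences of -1.06 and -2.99. The adenosine receptor Adora2b, chosen after its values were seen, averaged 5.08 with palbociclib and 6.22 with vehicle. It was the single gene that passed when vehicle array A was left out (adjusted p = 0.0332 in limma, against 0.00432 to 0.997 over all alternatives).

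Lists of genes for pathways and cell types were described by how many members had an unadjusted p under 0.05 in each direction, how many had groups that did not overlap, and the median log2 difference. Over all genes that median was 0, and centring each array on its median moved it by 0.11, so list medians are best read against that shift. Of 48 lists, the 4 with the lowest medians were T and NK cell, macrophage and dendritic cell, MHC class II and interferon-stimulated genes, and the highest was the list of phosphate, calcium and vitamin D genes.

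**Figure D2:**
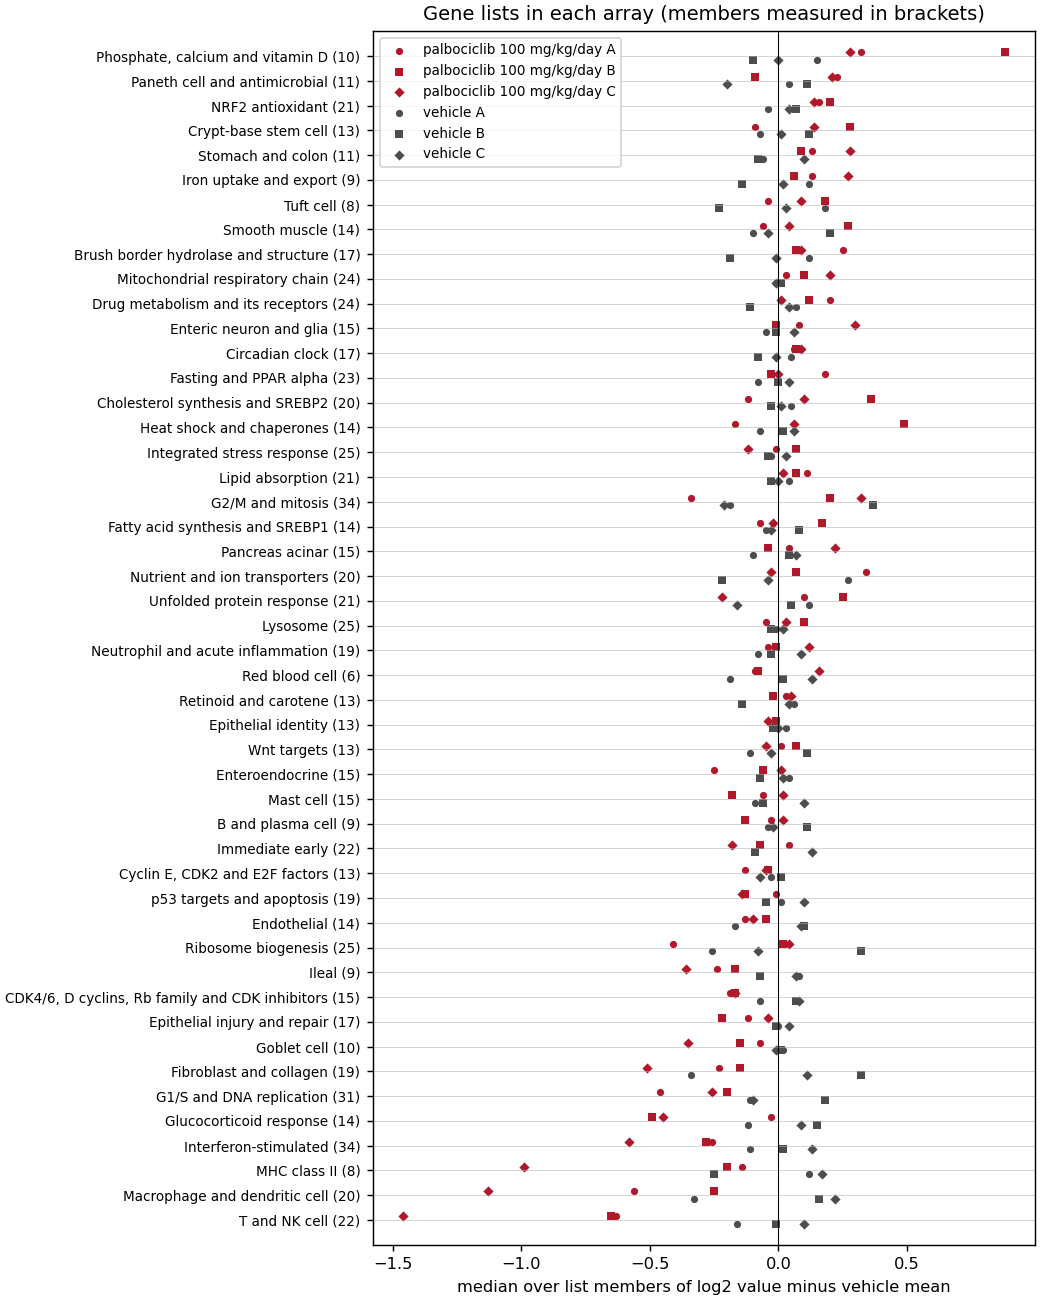
For each of 48 gene lists, the x axis gives the median over its members of the log2 value minus the vehicle mean, in each palbociclib 100 mg/kg/day array (red) and each vehicle array (grey). The T and NK cell list lies at -0.63, -0.65 and -1.46 in the palbociclib arrays and at -0.16, -0.01 and 0.1 in the vehicle arrays, and most other lists overlap around 0.

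Genes of T and NK cells were lower in the palbociclib arrays. Of 22 measured members, 20 had a log2 difference below 0, 10 had an unadjusted p under 0.05, all of them lower, and 15 had all palbociclib arrays below all vehicle arrays, with none above. No member passed after adjustment over all genes in the unweighted fit, and 6 passed, all lower, with array weights. The median log2 difference was -0.93, or 0.524 times the vehicle level. Array C was the lowest of the palbociclib arrays for 13 of the 22 genes, and without it the median was -0.6 and 8 members had an unadjusted p under 0.05. In bulk RNA, fewer cells of a type and less RNA per cell cannot be told apart.

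The genes of the T cell receptor complex and its signalling were among those lower. Cd8a, the coreceptor chain of cytotoxic T cells and many intraepithelial lymphocytes, was 6.03, 6.21 and 5.42 in the palbociclib arrays and 6.8, 6.96 and 7.24 in the vehicle arrays. Its log2 difference was -1.11 ± 0.27 (SE), 2.16-fold lower, with an unadjusted p of 0.00067 and an adjusted p of 0.508 in limma. The receptor chains Cd3d and Cd3e and the kinase Lck, chosen after their values were seen, had log2 differences of -1.43, -1.09 and -1.13, each with groups that did not overlap. Lck, which starts signalling from the T cell receptor, was 8.08, 7.99 and 7.05 in the palbociclib arrays and 8.73, 8.77 and 9.01 in the vehicle arrays. Cd4 and Cd2, the 2 members with a positive log2 difference, were chosen after their values were seen. They averaged 4.94 and 5.63 with palbociclib and 4.87 and 5.6 with vehicle. These are low values on the arrays, whose gene means have a median of 6.65, and detection calls were not used here.

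Cytotoxic effectors and a chemokine of the list were lower as well. Xcl1, a chemokine that activated CD8 T and NK cells secrete to draw dendritic cells, was 5.54, 4.82 and 4.8 in the palbociclib arrays and 6.49, 6.73 and 6.26 in the vehicle arrays, 2.71-fold lower. Gzma, a granule protease, was 10.04, 9.78 and 8.69 in the palbociclib arrays and 10.57, 11.18 and 11.22 in the vehicle arrays, 2.81-fold lower, with an unadjusted p of 0.0458. Prf1, the pore-forming protein of the same granules, was 6.92, 6.24 and 5.47 in the palbociclib arrays and 7.57, 7.16 and 7.23 in the vehicle arrays. The groups did not overlap for any of these genes, and array C was the lowest palbociclib array for all 3. Klrd1, an NK receptor chain, and Itgae, the integrin that holds lymphocytes in the epithelium, were also lower, with log2 differences of -0.94 and -0.91. Gzma, Prf1, Klrd1 and Itgae were chosen after their values were seen.

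Among the 10 largest negative differences of genes with an unadjusted p under 0.05, groups without overlap and a vehicle mean above the median of all genes were 2 more lymphocyte genes. Gimap4, a GTPase of lymphocytes, was 6.98, 6.98 and 6.15 in the palbociclib arrays and 7.85, 8.38 and 8.5 in the vehicle arrays, with a log2 difference of -1.54 ± 0.32 (SE) and an adjusted p of 0.297 in limma. Cd96, an adhesion receptor of T and NK cells, was 5.53, 6.04 and 4.87 in the palbociclib arrays and 6.79, 7.08 and 7.19 in the vehicle arrays. Its log2 difference was also -1.54, with an adjusted p of 0.64 in limma.

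**Figure D3:**
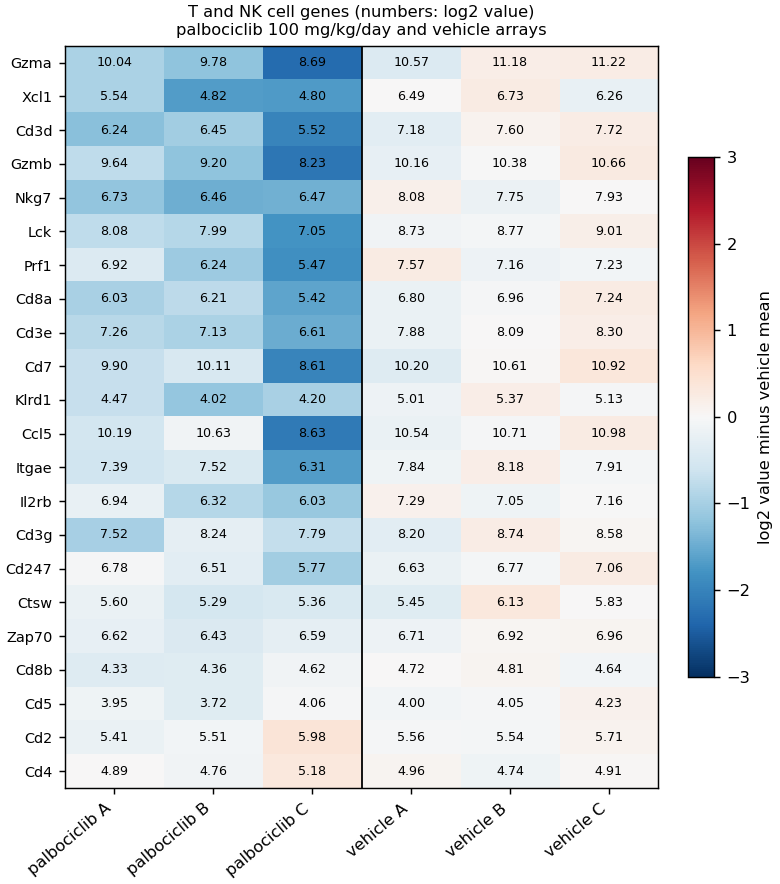
Rows are the 22 measured T and NK cell genes and columns the 3 palbociclib 100 mg/kg/day arrays and the 3 vehicle arrays. Each cell prints the log2 value and its colour is the difference from the vehicle mean, blue for lower. The palbociclib columns are mostly blue, deepest in array C, from Gzma with a log2 difference of -1.49 down to Cd2 and Cd4 with 0.03 and 0.07.

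Genes of macrophages and dendritic cells were lower in 18 of 20 members, with a median log2 difference of -0.63 and 5 members at an unadjusted p under 0.05, all lower. In 3 of the 20 the palbociclib arrays all lay below the vehicle arrays, beside 11.5% of all genes. Csf1r, the receptor for the growth factor that macrophages depend on, was 6.06, 6.36 and 5.05 in the palbociclib arrays and 6.39, 7.29 and 7.13 in the vehicle arrays. Tyrobp, the adaptor of activating receptors on myeloid and NK cells, was 7.43, 7.66 and 7.24 in the palbociclib arrays and 8.05, 8.35 and 8.61 in the vehicle arrays. Both were apart between groups, with log2 differences of -1.11 and -0.89 and adjusted p of 0.653 in limma for each. Flt3, a receptor of dendritic cell precursors, had a log2 difference of -0.51. Array C was the lowest palbociclib array for 16 of the 20 genes, and the count at an unadjusted p under 0.05 was 0 without palbociclib array C, 0 without vehicle array C, 1 without vehicle array B and 2 without palbociclib array A.

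The MHC class II genes, which present peptides to CD4 T cells, had a median log2 difference of -0.46 over 8 members, none with an unadjusted p under 0.05. RT1-Db1, a rat class II beta chain, was 10.2, 10.43 and 8.5 in the palbociclib arrays and 10.56, 10.9 and 10.77 in the vehicle arrays, a log2 difference of -1.03 with array C lowest. The median of the list was -0.17 without that array. RT1-Da, an alpha chain, was 12.27, 12.14 and 11.2 in the palbociclib arrays and 12.66, 12.41 and 12.66 in the vehicle arrays. RT1-Db1 was measured by a probe set whose probes match several related sequences.

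Interferon-stimulated genes had a median log2 difference of -0.36 over 34 members. At an unadjusted p under 0.05, 3 were lower and none higher, beside 4.68% and 2.52% of all genes. In 7 the palbociclib arrays all lay below the vehicle arrays, beside 11.5% of all genes, and in none above. Igtp, a GTPase induced by interferon gamma, was 6.6, 7.66 and 7.39 in the palbociclib arrays and 8.08, 8.7 and 8.69 in the vehicle arrays, 2.42-fold lower. Irf8, a transcription factor of myeloid cells and of the interferon response, was 9.91, 9.92 and 9.68 in the palbociclib arrays and 10.12, 10.62 and 10.83 in the vehicle arrays. Gbp2, a guanylate-binding protein, overlapped between the groups at a log2 difference of -0.83. The count of 3 was 1 without vehicle array B or without palbociclib array C, which left a median of -0.23. Tnfsf10, the death ligand TRAIL, which interferons also induce, was 6.85, 7.07 and 6.98 in the palbociclib arrays and 8.45, 8.08 and 8.77 in the vehicle arrays. Its log2 difference of -1.47 ± 0.38 (SE) was 2.76-fold lower, with an adjusted p of 0.533 in limma.

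Other immune and stromal cell lists had medians nearer to 0. The 9 genes of B and plasma cells had a median log2 difference of -0.04, with none at an unadjusted p under 0.05. Most of them lay near the floor of the arrays, and the 2 genes above the 30th percentile of mean signal had a median of -0.28. The medians were 0.02 for neutrophil and acute inflammation genes (19 members), -0.09 for endothelial genes (14 members) and -0.2 for fibroblast and collagen genes (19 members), also with no member lower at an unadjusted p under 0.05. In the summed log2 level of the T and NK cell list the palbociclib arrays ranged from 137.4 to 150.5 and the vehicle arrays from 160.6 to 165.6, without overlap. The epithelial identity list ranged from 161.5 to 162.5 in the palbociclib arrays and from 162 to 163.2 in the vehicle arrays. Of the neutrophil genes, 6 lay above the 30th percentile of mean signal, so low values on the arrays limit what these lists show. The part of cell make-up in the lymphocyte values was not tested.

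Mast cell genes had a median log2 difference of -0.04 over 15 members and 3 proteases lower at an unadjusted p under 0.05. Mcpt9, a protease of rat mucosal mast cells, was 8.1, 8.12 and 6.52 in the palbociclib arrays and 9.05, 9.12 and 9.78 in the vehicle arrays, with a log2 difference of -1.74 ± 0.58 (SE) and an adjusted p of 0.608 in limma. The other two were Mcpt8 and Mcpt10, which averaged 3.52 and 3.4 with palbociclib and 3.82 and 4.3 with vehicle, near the lowest values on the arrays. The count of 3 was 1 without vehicle array C, palbociclib array B or palbociclib array C.

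The mRNAs of the direct targets of palbociclib did not differ beyond the spread between arrays. Cdk4 was 7.17, 7.55 and 7.42 in the palbociclib arrays and 7.4, 7.99 and 7.47 in the vehicle arrays, a log2 difference of -0.24 with a 95% interval of -1.21 to 0.73. That interval rests on the spread in all groups of the fit. The SD of Cdk4 was 0.19 with palbociclib, 0.32 with vehicle and 1.2 with ribociclib at 300 mg/kg/day. Cdk6 lay between 4.04 and 4.38 in the palbociclib arrays and between 4.24 and 4.41 in the vehicle arrays. The Cdk6 values are low on arrays whose gene means have a median of 6.65, so little can be read from them. The groups overlapped for both kinases. The D cyclins Ccnd1, Ccnd2 and Ccnd3, which activate them, had log2 differences of 0.62, 0.14 and -0.19, and Rb1, their substrate, had 0.02 (95% interval -0.38 to 0.41). E2f1, the transcription factor that Rb holds back, was 5.08, 4.86 and 5.01 in the palbociclib arrays and 5.34, 5.26 and 5.19 in the vehicle arrays, without overlap but with an adjusted p of 0.756 in limma. Ccne1, the cyclin that acts next, overlapped at a log2 difference of 0.11.

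The inhibitors of CDKs included the members of this pathway with the smallest p. Cdkn2d, the INK4 protein p19 that binds CDK4 and CDK6, was 7.14, 7.49 and 7.61 in the palbociclib arrays and 8.23, 8.28 and 8.38 in the vehicle arrays, 1.85-fold lower with an adjusted p of 0.559 in limma. Cdkn1b, the inhibitor p27, was 10.23, 10.5 and 10.26 in the palbociclib arrays and 10.8, 11.13 and 11.12 in the vehicle arrays, 1.61-fold lower. Both were apart between groups, and they were the 2 of 15 members with an unadjusted p under 0.05. Cdkn2d was also lower than vehicle with ribociclib at 300 mg/kg/day and abemaciclib at 120 mg/kg/day, given in another vehicle, with log2 differences of -1.5 and -1.7. Rbl1, the Rb relative p107, was 7.2, 7.51 and 7.35 in the palbociclib arrays and 7.69, 7.89 and 7.61 in the vehicle arrays. Cdkn1a, the inhibitor p21, overlapped at a log2 difference of 0.12. The count of 2 was 1 without vehicle array B or C or without palbociclib array A or C.

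Genes of G1/S and DNA replication, the program that E2F switches on, tended to lower values. Of 31 members, 6 had an unadjusted p under 0.05, all lower, 10 were lower without overlap and 2 higher without overlap, and the median log2 difference was -0.25. E2F binding words were searched in their promoters, taken from RefSeq (GRCr8, 250 bases before to 50 after the start of the gene), as TTTCCCGC, TTTCGCGC, TTTGCCGC or TTTGGCGC on either strand. Such a word was present in 15 of the 29 promoters of the list that had an entry (51.7%) and in 716 of all 33469 promoters (2.14%). The share over all promoters counts every entry, and that of a list 1 entry per gene. In the other lists searched it was present in 1 of 7 promoters of cyclin E, CDK2 and E2F factors. It was in 0 of 15 of circadian clock genes and 0 of 15 of T and NK cell genes. These shares are properties of the lists and do not depend on palbociclib. A match is a description of the letters and not a shown binding site. The 4 promoters below belong to genes of the list with an unadjusted p under 0.05 and a matched word. The other promoters with a word belong to members without such a p, Mcm3, Mcm5 and Mcm7 among them. Uhrf1, with an unadjusted p under 0.05, had no word, and Mcm4 had no promoter entry. The sequences are written 5′ to 3′ on the strand of the gene, with the matched words in capitals. Mcm6 is at chr13:42404303-42404602 on the minus strand, Mcm2 at chr4:122918045-122918344 on the minus strand, Rpa2 at chr5:150260522-150260821 on the plus strand and Rfc3 at chr12:5836318-5836617 on the plus strand.
Mcm6: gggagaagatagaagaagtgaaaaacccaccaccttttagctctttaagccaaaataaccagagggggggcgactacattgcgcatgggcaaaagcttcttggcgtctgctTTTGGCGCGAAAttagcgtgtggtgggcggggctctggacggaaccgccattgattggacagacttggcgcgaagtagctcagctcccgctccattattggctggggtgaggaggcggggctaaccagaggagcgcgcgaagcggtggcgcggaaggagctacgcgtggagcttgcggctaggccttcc
Mcm2: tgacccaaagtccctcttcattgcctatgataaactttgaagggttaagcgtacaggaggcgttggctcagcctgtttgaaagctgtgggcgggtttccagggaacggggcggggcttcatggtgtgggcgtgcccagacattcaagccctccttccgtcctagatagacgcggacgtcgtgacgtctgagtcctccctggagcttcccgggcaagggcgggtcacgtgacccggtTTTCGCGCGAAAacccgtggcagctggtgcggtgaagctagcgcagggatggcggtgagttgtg
Rpa2: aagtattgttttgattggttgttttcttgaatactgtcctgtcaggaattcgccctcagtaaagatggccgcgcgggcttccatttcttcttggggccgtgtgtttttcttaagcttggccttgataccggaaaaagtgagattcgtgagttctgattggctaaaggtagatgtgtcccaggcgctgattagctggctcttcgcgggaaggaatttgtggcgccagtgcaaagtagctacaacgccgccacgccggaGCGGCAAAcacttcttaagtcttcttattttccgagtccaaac
Rfc3: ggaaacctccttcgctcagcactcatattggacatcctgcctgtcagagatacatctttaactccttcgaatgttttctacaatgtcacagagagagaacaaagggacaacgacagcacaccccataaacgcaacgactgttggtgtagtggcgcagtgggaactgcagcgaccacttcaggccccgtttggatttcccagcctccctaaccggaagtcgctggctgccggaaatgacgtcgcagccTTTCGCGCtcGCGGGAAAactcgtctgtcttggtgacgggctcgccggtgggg

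In the Mcm6 promoter overlapping words begin at bases 112 and 116 of the 300 printed, and in the Mcm2 promoter at bases 237 and 241. The Rpa2 promoter has 1 word, at base 258, and the Rfc3 promoter has words at bases 248 and 258. Mcm6, a subunit of the MCM helicase that unwinds DNA at replication origins, was 5.06, 5.92 and 5.18 in the palbociclib arrays and 6.52, 6.75 and 6.12 in the vehicle arrays. Its log2 difference was -1.08 ± 0.36 (SE), 2.11-fold lower, with an unadjusted p of 0.00787 and an adjusted p of 0.607 in limma. Mcm2, another subunit of the helicase, was 5.2, 5.8 and 5.51 in the palbociclib arrays and 6, 6.53 and 5.94 in the vehicle arrays. Mcm4, chosen after its values were seen, was 4.52, 4.9 and 4.33 in the palbociclib arrays and 5.58, 6 and 5.16 in the vehicle arrays. These 3 helicase subunits were apart between groups. The other three of the list, Mcm3, Mcm5 and Mcm7, overlapped between groups and had log2 differences of -0.07, -0.16 and -0.59, with unadjusted p of 0.69, 0.467 and 0.11 in limma. Mcm3, Mcm5 and Mcm7 were also named after their values were seen.

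Rpa2, part of the complex that coats single-stranded DNA, was 5, 5.51 and 4.75 in the palbociclib arrays and 5.93, 6.1 and 5.81 in the vehicle arrays, 1.81-fold lower. Rfc3, a subunit of the clamp loader, was 5.21, 5.64 and 5.65 in the palbociclib arrays and 5.82, 6.36 and 6.19 in the vehicle arrays, 1.54-fold lower. The sixth gene was Uhrf1, which maintains DNA methylation at the replication fork, with a log2 difference of -0.44. Rfc3 and Uhrf1 were chosen after their values were seen. The count of 6 was 2 without vehicle array B and 2 without palbociclib array A, which was the lowest palbociclib array for 23 of the 31 genes. The median log2 difference of the list was -0.13 with each array centred on its median. Beside the -0.25 here, its median against vehicle was -0.38 for palbociclib at 30 mg/kg/day and -0.27 for ribociclib at 300 mg/kg/day. For abemaciclib at 120 mg/kg/day it was 1.43, and ribociclib and abemaciclib were given in another vehicle.

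Genes of G2/M and mitosis lay on both sides of 0, with 20 above and 14 below. None of 34 members had an unadjusted p under 0.05, none had groups without overlap, and the median log2 difference was 0.06. In each array the median of the list, relative to the vehicle mean, was -0.34, 0.2 and 0.32 in the palbociclib arrays and -0.19, 0.37 and -0.21 in the vehicle arrays, so arrays of 1 group differed by more than the groups. Mki67, the usual marker of cycling cells, was 7.74, 8.06 and 7.94 in the palbociclib arrays and 8.9, 8.01 and 7.78 in the vehicle arrays, a log2 difference of -0.31 with a 95% interval of -1.66 to 1.03. A difference of this size in either direction was not detectable with 3 arrays a group.

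Crypt-base stem cell genes had a median log2 difference of 0.17 over 13 members, none with an unadjusted p under 0.05. Lgr5, the receptor that marks these cells, lay between 3.88 and 4.24 in the palbociclib arrays and between 3.74 and 3.99 in the vehicle arrays. The Lgr5 values are low on the arrays, and 8 of the 13 members lay above the 30th percentile of mean signal. Axin2, a feedback target of Wnt signalling, was 6.98, 6.86 and 6.37 in the palbociclib arrays and 6.6, 6.24 and 6.34 in the vehicle arrays, with overlap. Ribosome biogenesis genes had a median of -0.11 over 25 members, of which Polr1a, a subunit of RNA polymerase I, had an unadjusted p under 0.05, at a log2 difference of -0.66.

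Most of these proliferation genes were lower with palbociclib than with abemaciclib at 120 mg/kg/day, another CDK4/6 inhibitor. In that comparison 2598 genes passed limma's test, 975 higher with palbociclib (6.86%) and 1623 lower (11.4%), and with each array centred on its median the split turned to 3091 higher and 1226 lower. All 34 G2/M and mitosis genes, 27 of 31 G1/S genes, 23 of 25 ribosome biogenesis genes and 9 of 13 stem cell genes were among those lower in the palbociclib arrays. In the same order, the median log2 differences of these lists from vehicle were 2.46, 1.43, 1.69 and 1.82 with abemaciclib. With palbociclib they were 0.06, -0.25, -0.11 and 0.17, so the abemaciclib arrays lay above vehicle and the palbociclib arrays near it. Mcm2 averaged 5.5 with palbociclib and 8 with abemaciclib, an adjusted p of 3.69e-05 in limma, beside 6.15 with vehicle. Doses, vehicles and compounds differ between these groups and cannot be told apart. The title of abemaciclib array B gives another dose than its treatment label, which was followed here, and 2643 genes passed without that array. The 3′ to 5′ beta-actin difference was 0.5 to 0.76 in the palbociclib arrays and 0.86 to 1.05 in the abemaciclib arrays, and 970 genes passed with it as a covariate.

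**Figure D4:**
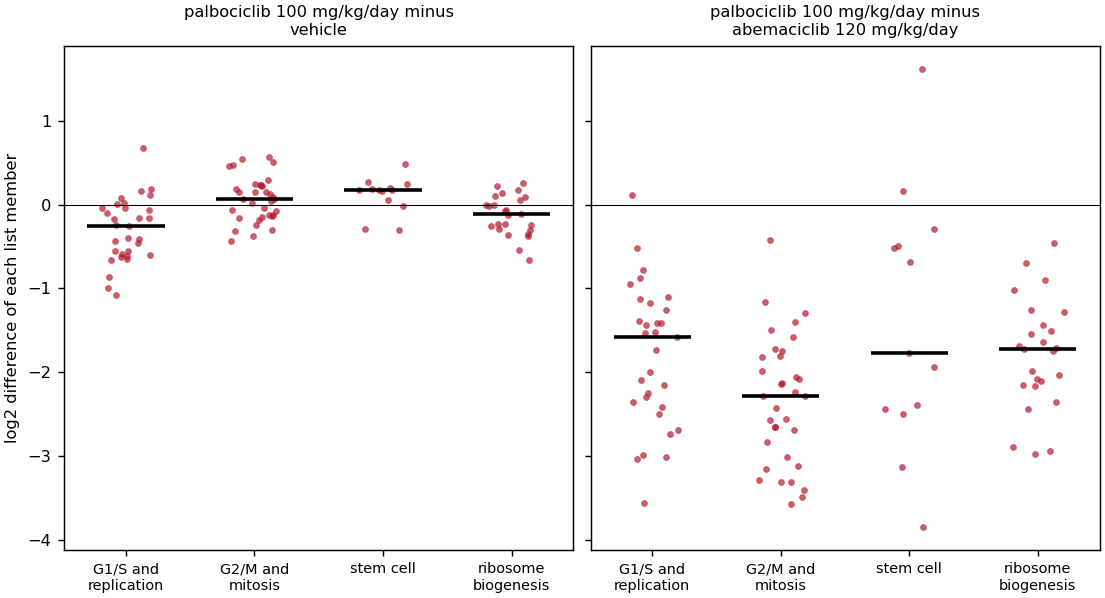
Each point is a member of a gene list and the bar is the median of the list. The left panel gives the log2 difference of palbociclib 100 mg/kg/day minus vehicle, with medians of -0.25, 0.06, 0.17 and -0.11, and the right panel that of palbociclib 100 mg/kg/day minus abemaciclib 120 mg/kg/day. Points scatter around 0 on the left and lie mostly below 0 on the right.

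Lymphocyte and antigen presentation genes were higher with palbociclib than with abemaciclib. In the test against abemaciclib at 120 mg/kg/day, 13 of 22 T and NK cell genes and 7 of 8 MHC class II genes were higher in the palbociclib arrays, and none was lower. Nkg7 averaged 6.55 with palbociclib and 5.48 with abemaciclib, beside 7.92 with vehicle (adjusted p = 0.00491 in limma for palbociclib against abemaciclib). The median log2 differences from vehicle of the T and NK cell list were -0.16 for palbociclib at 30 mg/kg/day, -0.93 for palbociclib at 100 mg/kg/day, -1.1 in the ribociclib group and -2.24 in the group given abemaciclib at 120 mg/kg/day. These comparisons share the vehicle arrays, and the doses differ. Ribociclib and abemaciclib were given in another vehicle, so compound and vehicle cannot be told apart there.

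Genes of phosphate, calcium and vitamin D handling were higher with palbociclib. All 10 members had a positive log2 difference, 4 had an unadjusted p under 0.05, and the median was 0.62. Slc34a2, a sodium-dependent phosphate carrier of the brush border, was 10.14, 11.9 and 10.6 in the palbociclib arrays and 9.71, 5.49 and 7.44 in the vehicle arrays. It had the largest positive difference of the named genes, 3.33 ± 1.03 (SE), 10.1-fold higher, but vehicle array A was close to the palbociclib arrays and the adjusted p was 0.559 in limma. Slc20a1, a phosphate carrier of most cells, was 12.23, 11.95 and 11.89 in the palbociclib arrays and 11.45, 11.21 and 10.76 in the vehicle arrays, 1.84-fold higher. Both carriers were apart between groups.

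The calcium genes gave smaller or less even differences. Trpv6, the calcium channel of the brush border, was 5.7, 6.76 and 5.92 in the palbociclib arrays and 5.3, 5.37 and 5.4 in the vehicle arrays, 1.7-fold higher. Atp2b1, the calcium pump of the basolateral membrane, was 11.02, 11.69 and 10.01 in the palbociclib arrays and 10.26, 9.61 and 10.08 in the vehicle arrays, with overlap. S100g, the calcium-binding protein calbindin D9k, was 10.43, 13.26 and 10.39 in the palbociclib arrays and 10, 10.77 and 9.85 in the vehicle arrays, and its log2 difference of 1.15 did not reach an unadjusted p of 0.05. Array B was the highest palbociclib array for 6 of the 10 genes, and without it the median of the list was 0.31. Vdr, the vitamin D receptor, had a log2 difference of 0.48 with overlap. Atp2b1, S100g and Vdr were chosen after their values were seen.

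Differences in the absorptive program were otherwise few. Of 20 nutrient and ion transporters, 1 had an unadjusted p under 0.05. That was Slc28a2, a carrier of purine nucleosides, with 12.03, 12.58 and 11.8 in the palbociclib arrays and 10.63, 10.11 and 10.19 in the vehicle arrays, a log2 difference of 1.82 ± 0.82 (SE). The count was 0 without vehicle array B or C or palbociclib array A or B, 2 without vehicle array A, and 3 without palbociclib array C or with each array centred on its median. Of 21 lipid absorption genes, 3 were higher at an unadjusted p under 0.05 and none lower, with a median of 0.07. Dgat2, which makes triglyceride from diglyceride, was 12.52, 12.28 and 12.27 in the palbociclib arrays and 11.96, 11.77 and 11.82 in the vehicle arrays, 1.42-fold higher. Mogat2, which acts one step earlier in the enterocyte, and Acsl3, which activates long-chain fatty acids, had log2 differences of 0.32 and 0.66, and the groups did not overlap for any of the 3 genes. The count of 3 was 1 without vehicle array B or palbociclib array B.

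The enterocyte markers Alpi, intestinal alkaline phosphatase, and Fabp1, a fatty acid binding protein, had log2 differences of 0.5 and -0.03, both with overlap. Insig1, which holds back cholesterol synthesis and is itself induced with it, was 11.84, 11.77 and 11.92 in the palbociclib arrays and 10.8, 10.91 and 11.11 in the vehicle arrays, 1.87-fold higher with an adjusted p of 0.634 in limma. It was the single member of 20 cholesterol synthesis genes with an unadjusted p under 0.05, and the median of that list was 0.09. Lgmn, a protease of the lysosome, was 12.22, 12.15 and 11.7 in the palbociclib arrays and 11.1, 10.81 and 10.84 in the vehicle arrays, 2.16-fold higher. Both genes were clearly apart between groups.

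Drug metabolism genes had a median log2 difference of 0.1 over 24 members, with 3 higher at an unadjusted p under 0.05 and none lower. Abcc2, the export pump of the apical membrane for conjugated compounds, was 10.45, 11.15 and 9.82 in the palbociclib arrays and 9.83, 8.96 and 9.09 in the vehicle arrays, 2.27-fold higher, with palbociclib array C just below vehicle array A. Ugt2b7, a glucuronosyltransferase, was 4.91, 8.07 and 5.65 in the palbociclib arrays and 4.68, 4.42 and 4.76 in the vehicle arrays, a log2 difference of 1.59 with array B far above the other two. The count of 3 was 0 without vehicle array B, 1 without palbociclib array B and 6 without palbociclib array C. Cyp1a1, the enzyme induced through the aryl hydrocarbon receptor, was 9.71, 10.03 and 8.06 in the palbociclib arrays and 5.2, 12.92 and 9.33 in the vehicle arrays. Its vehicle values spanned more than the difference between groups, and its log2 difference was 0.11 with a 95% interval of -2.78 to 3.01.

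Goblet cell genes tended to small, even negative differences. Of 10 members, 4 were lower and 1 higher at an unadjusted p under 0.05, and the median log2 difference was -0.16. Agr2, which folds mucin in the endoplasmic reticulum, was 12.73, 12.57 and 12.43 in the palbociclib arrays and 13.08, 13.15 and 13.16 in the vehicle arrays, 1.47-fold lower with an adjusted p of 0.613 in limma. Tff3, the trefoil peptide secreted with mucus, was 13.46, 13.39 and 13.3 in the palbociclib arrays and 13.61, 13.7 and 13.64 in the vehicle arrays. Guca2a, the hormone guanylin, and Zg16, a lectin of the mucus layer, had log2 differences of -0.35 and -0.18. The groups did not overlap for any of these 4 genes. Muc2, the gel-forming mucin, was 13.77, 13.76 and 13.45 in the palbociclib arrays and 13.91, 13.79 and 13.83 in the vehicle arrays, with an adjusted p of 0.756 in limma. Spink4, a secreted peptide of goblet cells, was the member that was higher, with overlapping groups and a log2 difference of 1.83. Zg16 and Spink4 were chosen after their values were seen. The count of 4 was 2 without vehicle array A or B or palbociclib array B or C. With each array centred on its median it was 1, and the median of the list was -0.05.

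Circadian clock genes had some of the larger positive and negative differences. Of 17 members, 3 were higher and 2 lower at an unadjusted p under 0.05, and the median log2 difference was 0.09. Per2, a repressor of the clock loop, was 8.03, 7.77 and 8.17 in the palbociclib arrays and 7.38, 7.36 and 7.24 in the vehicle arrays, 1.58-fold higher with an adjusted p of 0.543 in limma. Its relative Per3 was 8.24, 7.09 and 5.94 in the palbociclib arrays and 6.37, 4.49 and 4.38 in the vehicle arrays, 4.02-fold higher but with overlap between palbociclib array C and vehicle array A. Dbp, an output factor of the clock, was 8.81, 7.6 and 8.79 in the palbociclib arrays and 6.99, 7.06 and 5.68 in the vehicle arrays, 3.54-fold higher. Per2 and Dbp were apart between groups. Without vehicle array C, or without palbociclib array A, 2 members were higher and 0 lower at an unadjusted p under 0.05.

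The opposing clock genes were lower. Nfil3, a repressor that competes with Dbp for the same sites, was 7.38, 8.43 and 8.64 in the palbociclib arrays and 9.16, 9.09 and 10.01 in the vehicle arrays, 2.41-fold lower. Bmal1, the activator of the loop, was 7.79, 8.56 and 7.94 in the palbociclib arrays and 8.79, 8.49 and 9.3 in the vehicle arrays, with overlap. Both were chosen after their values were seen. The labels used here give no time of day of sampling, and its part in these values was not tested. Among glucocorticoid response genes, Fkbp5, a chaperone of the receptor, was 9.81, 8.16 and 9.35 in the palbociclib arrays and 7.84, 8.35 and 7.02 in the vehicle arrays, with overlap. Mt2A, a metallothionein, was 8.61, 8.94 and 10.53 in the palbociclib arrays and 10.33, 11.27 and 11 in the vehicle arrays, also with overlap, and the median of the 14 genes was -0.32.

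**Figure D5:**
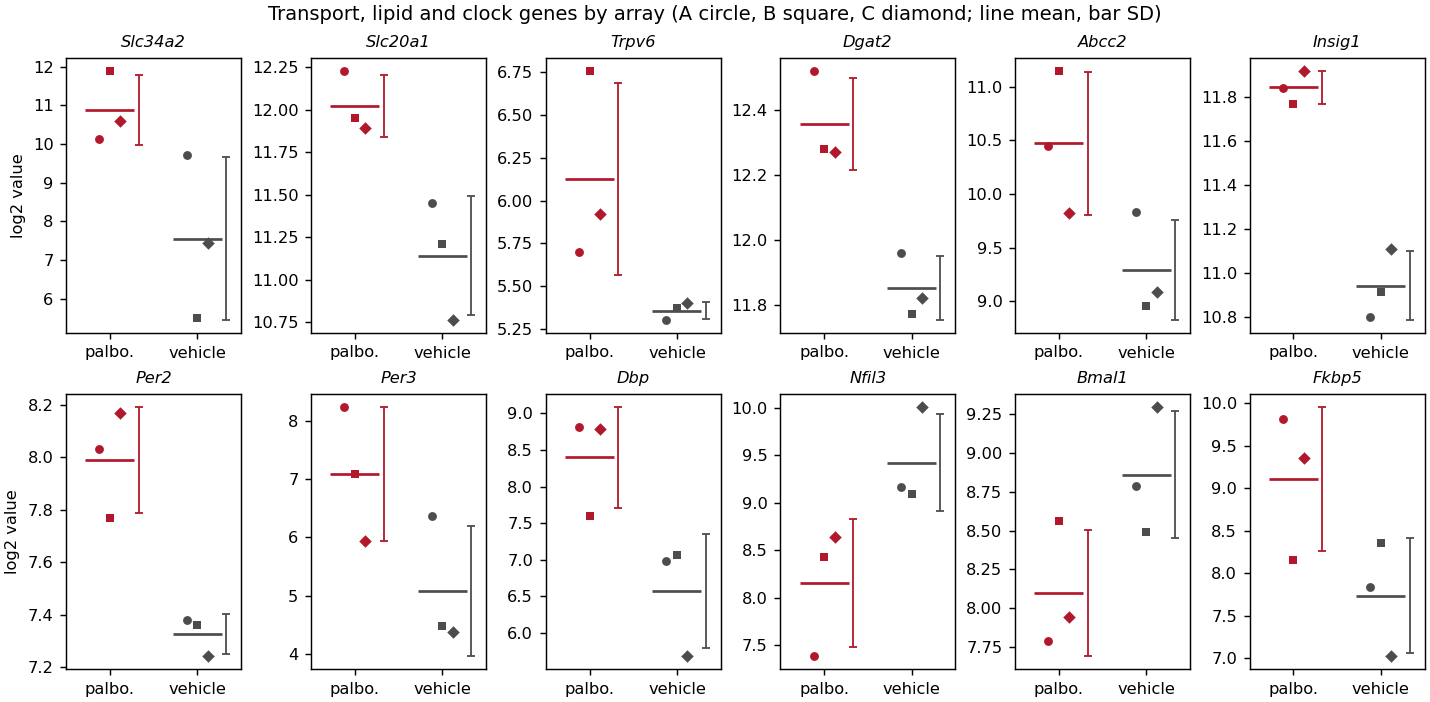
Each panel gives the log2 values of 1 gene in the 3 palbociclib 100 mg/kg/day arrays (red) and the 3 vehicle arrays (grey), with the mean as a line and the SD as a bar, and each panel has its own axis that does not start at 0. Slc34a2, Slc20a1, Trpv6, Dgat2, Insig1, Per2 and Dbp are higher without overlap in the palbociclib arrays and Nfil3 is lower without overlap, while the groups overlap for Abcc2, Per3, Bmal1 and Fkbp5.

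The remaining large positive differences, among genes with an unadjusted p under 0.05 and groups without overlap, belonged to genes of several functions. Sult6b2, a sulfotransferase, was 11.91, 13.11 and 11.25 in the palbociclib arrays and 10.48, 8.47 and 9.87 in the vehicle arrays, a log2 difference of 2.48 ± 1.1 (SE). Dmbt1, a secreted scavenger protein that binds bacteria, was 9.92, 12.31 and 10.95 in the palbociclib arrays and 9.33, 9.42 and 7.53 in the vehicle arrays, a log2 difference of 2.3 ± 0.88 (SE). Array B was the highest for both. Ddc, the decarboxylase that makes dopamine and serotonin, was 9.18, 10.57 and 9.12 in the palbociclib arrays and 8.03, 8.2 and 7.26 in the vehicle arrays, 3.46-fold higher. Cfi, a protease that degrades complement, was 10.36, 10.87 and 10.48 in the palbociclib arrays and 9.36, 9.05 and 8.88 in the vehicle arrays, 2.78-fold higher. Cfi was more even within the groups than the others, with a log2 difference of 1.47 ± 0.47 (SE) and an adjusted p of 0.575 in limma. Aldh7a1, an aldehyde dehydrogenase of lysine breakdown, and Tnfsf13, the B cell factor APRIL, were 2.82-fold and 2.57-fold higher. Gas2l3, a cytoskeletal linker, was 8.41, 8.08 and 8.3 in the palbociclib arrays and 5.25, 7.96 and 7.37 in the vehicle arrays, 2.66-fold higher. Vehicle array A was far below the other two, and without it the log2 difference of Gas2l3 was 0.6 in place of 1.41.

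The remaining large negative differences chosen by the same rule came mostly from genes with wide spreads. Plb1, a phospholipase of the brush border, was 8.95, 4.45 and 9.49 in the palbociclib arrays and 10.53, 12.28 and 11.22 in the vehicle arrays, a log2 difference of -3.71 ± 1.61 (SE). Without palbociclib array B, at 4.45, it was smaller, and over all alternatives it lay between -4.64 and -2.12. Zp2, known as an egg coat protein, was 5.35, 8.44 and 5.32 in the palbociclib arrays and 9.11, 8.67 and 10.08 in the vehicle arrays. Ephx2, the soluble epoxide hydrolase, was 8.53, 10.74 and 8.7 in the palbociclib arrays and 12.08, 11.2 and 12.26 in the vehicle arrays. In Zp2 and Ephx2 palbociclib array B was close to the vehicle arrays, and the adjusted p were 0.613 and 0.623 in limma. Hspa12a, a distant relative of heat shock protein 70, was 7.81, 4.85 and 7.42 in the palbociclib arrays and 8.88, 8.24 and 8.48 in the vehicle arrays, 3.57-fold lower, and without palbociclib array B its log2 difference was -0.91 in place of -1.83. Zfp354a, a zinc finger factor, was more even, with 5.91, 5.03 and 5.67 in the palbociclib arrays and 6.94, 7.2 and 7.39 in the vehicle arrays. It was 3.13-fold lower with an adjusted p of 0.543 in limma, and its log2 difference lay between -1.83 and -1.39 over all alternatives.

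Palbociclib at 100 mg/kg/day and at 30 mg/kg/day shared compound and vehicle, and no gene differed between them in limma's test (0 of 14217, 0%), with 619 genes at an unadjusted p under 0.05 (4.35%). Palbociclib at 30 mg/kg/day against vehicle also gave 0 calls in limma, with 357 genes at an unadjusted p under 0.05 (2.51%). Slc34a2 averaged 7.55 in vehicle, 9.66 at 30 mg/kg/day and 10.88 at 100 mg/kg/day. Nkg7 averaged 7.92 in vehicle, 7.35 at 30 mg/kg/day and 6.55 at 100 mg/kg/day. Mcm6 averaged 6.46 in vehicle, 5.34 at 30 mg/kg/day and 5.39 at 100 mg/kg/day. Among these 3 genes the mean at 30 mg/kg/day lay between the others for Slc34a2 and Nkg7, and the differences between doses did not pass. Cd8a averaged 7.0 in vehicle, 7.34 at 30 mg/kg/day and 5.89 at 100 mg/kg/day, so its mean at the lower dose lay above vehicle. Its adjusted p between the doses was 0.557 in limma.

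Against ribociclib at 300 mg/kg/day, given in another vehicle, 117 genes passed limma's test, 64 higher with palbociclib (0.45%) and 53 lower (0.373%). Ldaf1 averaged 7.2 with palbociclib and 8.58 with ribociclib (adjusted p = 0.0368 in limma), beside 8.73 with vehicle. Mogat2 averaged 12.88 with palbociclib and 12.28 with ribociclib (adjusted p = 0.0368 in limma). Fabp6 averaged 4.7 with palbociclib and 12.77 with ribociclib, beside 7.24 with vehicle (adjusted p = 0.0269 in limma for palbociclib against ribociclib). None of the T and NK cell, G1/S or G2/M genes passed in this test, and no member of the CDK4/6 list did. The count depended on single arrays, at 17 without palbociclib array B, 18 without palbociclib array C, 69 without palbociclib array A, and 641, 309 and 40 without ribociclib arrays A, B and C. It was 0 with only the 2 groups in the fit, with 1524 genes at an unadjusted p under 0.05.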

How the data were processed

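RNA from 18 arrays of rat jejunal mucosal scrapings was labelled as biotinylated cRNA, per the labels' protocols. The authors deposited each probe set's expression on a log2 scale, and the genes used lay between 2.93 and 14.34. The submitters' processing notes name Transcriptome Analysis Console, RMA and Affymetrix Expression Console, with no version. As usually run, RMA gives every array the same distribution of signal, which hides a change in total RNA per cell. The number of arrays limits the precision.

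Groups followed the treatment label. Among 31099 probe sets, the 57 controls were dropped. The platform annotation gave 1 symbol to 20826, more than 1 to 436 and none to 9780, and 20758 matched the RefSeq gene table by Entrez identifier. A gene was represented by its probe set with the highest mean, giving 14217 genes, 4525 of them with several probe sets. The model, fitted with limma 3.58.1 (R 4.3.3), had a mean for each group and used the 18 arrays together, which left 12 degrees of freedom for the spread, and eBayes followed the intensity trend. Tests were two-sided, and the Benjamini-Hochberg adjustment covered the 14217 genes of each comparison, at a threshold of 0.05. Intervals are 95% intervals of that model, and SE is its standard error. The fit was tested on simulated data. Other steps used Python 3.11.15, pandas 2.3.3, numpy 2.4.6 and matplotlib 3.10.9.

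Named genes were the 10 largest differences each way among called genes or, as none was called, among genes with an unadjusted p under 0.05, groups without overlap and a higher mean above the median of all genes, leaving out placeholder symbols. To these came the 6 smallest p, up to 3 members of each list and a set of Cdk4, Cdk6, Ccnd1, Ccnd2, Ccnd3, Rb1, E2f1, Ccne1, Cdkn1a, Mki67, Slc34a2, Cyp1a1, Fabp1, Alpi, Muc2, Axin2 and Lgr5. The comparison, the 48 lists and this rule were chosen with earlier results of these data known. Lists were described by counts and medians and not tested as sets. Whether the replicate letters pair the arrays was checked by the correlation of deviations from group means, which was 0.173, -0.0801 and 0.178 for letters A, B and C, so the letters were not used as pairs. Alternatives were quantile normalization again, centring, a filter on genes below the 30th percentile, the mean of probe sets, eBayes without the trend, only the groups compared, the letter as a block, array weights, the beta-actin difference as a covariate, and leaving out each array in turn. Apart from the markers used to check the tissue, genes outside the rule are marked in the text as chosen after their values were seen.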

Additional observations from a re-analysis of the deposited data

How the results depend on the processing

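Of the 4 counts of genes that passed, that for palbociclib 100 mg/kg/day against vehicle was 0 under all alternatives other than array weights, with 398, and leaving out single arrays, with 0 to 1. The unadjusted count of 1023 genes lay between 499, without vehicle array B, and 1904, with only the 2 groups in the fit, other than 3167 with array weights. Against palbociclib 30 mg/kg/day the count was 1 with only the 2 groups, 363 with array weights and 0 to 0 with single arrays left out. Against ribociclib 300 mg/kg/day it was 219 with dim genes left out, 0 with only the 2 groups, 668 with array weights and 17 to 641 with single arrays left out. Against abemaciclib 120 mg/kg/day it was 4317 with each array centred on its median, 970 with the beta-actin covariate and 1344 to 2643 with single arrays left out, and quantile normalization again kept more lower than higher, 1404 and 1137. The cause of these shifts was not tested. With the replicate letter as a block, which does not rest on a stated pairing, the counts were 0 against vehicle, 0 against palbociclib 30 mg/kg/day, 195 against ribociclib 300 mg/kg/day and 2761 against abemaciclib 120 mg/kg/day. Of 110 genes in the text, 9 changed sign somewhere, all with differences near 0 or wide spreads. With single arrays left out, the log2 difference lay between -0.06 and 0.29 for Ccnd2, -0.09 and 0.21 for Rb1, -0.03 and 0.32 for Cdkn1a, -0.54 and 0.02 for Mki67, -1.86 and 2.0 for Cyp1a1, -0.05 and 0.16 for Cd4, and -0.14 and 0.15 for Cd2. The sign also turned for Rb1 at -0.02 with the covariate, Cdkn1a at -0.11 with the mean of probe sets, Fabp1 at 0.08 and Mcm3 at 0.04 with centring, and Cyp1a1 at -0.18 and Cd2 at -0.11 with array weights. The medians of the T and NK cell list, -1.13 to -0.6, and of the phosphate, calcium and vitamin D list, 0.31 to 0.77, kept their sign under all 15 alternatives.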

Other observations

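Several lists outside the main groups held small differences. Of 24 subunits of the mitochondrial respiratory chain, 8 were higher without overlap in the palbociclib arrays and none lower, beside 7.46% higher over all genes, with a median log2 difference of 0.1 and no member at an unadjusted p under 0.05. Ndufv1, which carries the NADH site of complex I, averaged 11.57 with palbociclib and 11.05 with vehicle. Of 21 NRF2 antioxidant genes, 5 were higher without overlap and none lower. Txnrd1, thioredoxin reductase, was 11.43, 11.69 and 10.78 in the palbociclib arrays and 10.67, 10.63 and 10.62 in the vehicle arrays, and Hmox1, heme oxygenase, averaged 8.29 with palbociclib and 7.25 with vehicle. Integrated stress, unfolded protein and heat shock lists had medians of 0.07, 0.05 and 0.08.

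Lcn2, an antimicrobial iron-binding protein, was 4.67, 4.83 and 5.71 in the palbociclib arrays and 4.37, 4.14 and 4.46 in the vehicle arrays, in a low range. Car4, a membrane carbonic anhydrase, averaged 9.95 with palbociclib and 8.89 with vehicle, and Slc51a, a bile acid exporter of the basolateral membrane, averaged 12.54 with palbociclib and 12.87 with vehicle. Pdk4, a kinase of fasting metabolism, was 10.47, 10.52 and 10.45 in the palbociclib arrays and 11.35, 11.26 and 11.82 in the vehicle arrays, apart between groups but with an unadjusted p of 0.0946. Cdx1, an intestinal homeobox factor, was 1.49-fold lower. Anxa3, an annexin, was 2.1-fold lower and Fos, an immediate early factor, 1.57-fold lower with overlap, each by its brightest probe set. With probe sets averaged per gene, the log2 difference was -0.25 in place of -1.07 for Anxa3 and -0.24 in place of -0.65 for Fos, and neither had an unadjusted p under 0.05. None of these genes passed after adjustment in the unweighted limma fit.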
